A study of Mus musculus with 5 samples.

Results

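Hybrids of embryonic stem (ES) and hepatoma cells that had been differentiated for 14 days (EHeD14) were set against Hepa1-6, the mouse hepatoma line used as a fusion partner, to see which liver and tumour genes had come to the hepatoma level and which had not. The comparison rests on 2 of the 5 arrays of the series, 1 for each condition, and on the 14640 named genes, of 18353 on the array, whose probe the scanner software called well above background on EHeD14 or on Hepa1-6. The other 3 arrays, ES cells, undifferentiated ES-Hepa hybrids (EHe) and hybrids differentiated for 7 days (EHeD7), served to show where a gene had started. By the labels, ES and EHe were kept in Glasgow medium with serum replacement, serum and leukemia inhibitory factor, the differentiated hybrids as a monolayer on gelatin in Dulbecco's medium rich in glucose and calf serum, and Hepa1-6 in the same medium with less of that serum. The study's methods describe differentiation through embryoid bodies without saying that the array samples were made in this way. Its hybrids were near-tetraploid and had been selected for a resistance gene from each parent, so that EHe, EHeD7 and EHeD14 each carried chromosomes of an ES cell as well as of a hepatoma cell. Nothing in the labels tells how many hybrid clones the arrays hold.

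Levels are given as the log2 signal relative to the 75th percentile of the same array, so that 0 is that percentile, and a level serves to compare arrays for 1 probe and not 1 probe with another. With 1 array per condition no replicate error existed and no test was made, so that every difference below is a description of these arrays. The 245 probes printed in 10 spots each gave a median SD between spots on each array, which combine to 0.119 for the EHeD14 minus Hepa1-6 difference on the log2 scale and cover spot noise only. A gene was counted as apart when the arrays differed over 3-fold and as near when they lay within 2-fold and both were well above background. A probe not called well above background is termed dim, and where it was dim on 1 array it gives a lower bound, "at least", taken at the lowest signal called well above background there (-5.55 in EHeD14, -5.30 in Hepa1-6) or at the probe's own signal where that was higher. Well above background were 63.6% of the probes in EHeD14 and 54.6% in Hepa1-6. Hepa1-6 was hybridized on another slide than the other 4 arrays, and line and slide cannot be told apart. The 7 spiked-in controls detected on both arrays were higher in EHeD14 by 0.29 to 0.49, the 29 genes of a list of evenly expressed genes by a median of 0.34, and all named genes by a median of 0.28.

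Hepatocytes take up nutrients from the blood, make most of the plasma proteins, including albumin, apolipoproteins, clotting factors and complement, and break down drugs and steroids. A small set of transcription factors, among them those of the HNF4, FOXA, C/EBP and ONECUT families, binds the promoters and enhancers of these genes. Hepatoma lines keep a part of that programme, often with fetal members such as alpha-fetoprotein, while ES cells lack most of it. Growth factor receptors, RAS, MYC and AP-1 proteins, and the loss of cell cycle inhibitors, can drive tumour growth.

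Of the 14640 genes, 2015 (13.8%) were over 3-fold higher in Hepa1-6, 3509 (24.0%) were over 3-fold higher in EHeD14, and 6575 (44.9%) were near. With dim values set to the detection limit the first share was 12.9% and the second 18.7%. Of the 158 genes kept from the 6 liver lists, 80 (50.6%) were over 3-fold higher in Hepa1-6, 27 were higher in EHeD14 and 25 were near, with a median difference (EHeD14 minus Hepa1-6) of -1.59. In 33 of the 80 the EHeD14 probe was not well above background. Another 51 listed liver genes were dim on both arrays. The tumour lists were spread to both sides: of 304 genes, 98 (32.2%) were higher in Hepa1-6, 73 (24.0%) were higher in EHeD14 and 96 (31.6%) were near, with a median of -0.10. The split over all probes depended on scaling. EHeD14 was the higher side in 62.2% of the probes over 3-fold apart, and in 37.2% when each array was centred on its median, a step that moved the median of all named genes from 0.28 to -0.55 and that of the evenly expressed genes from 0.34 to -0.49. Under that scaling the liver lists had 90 genes higher in Hepa1-6 and 20 higher in EHeD14.

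**Figure D1:**
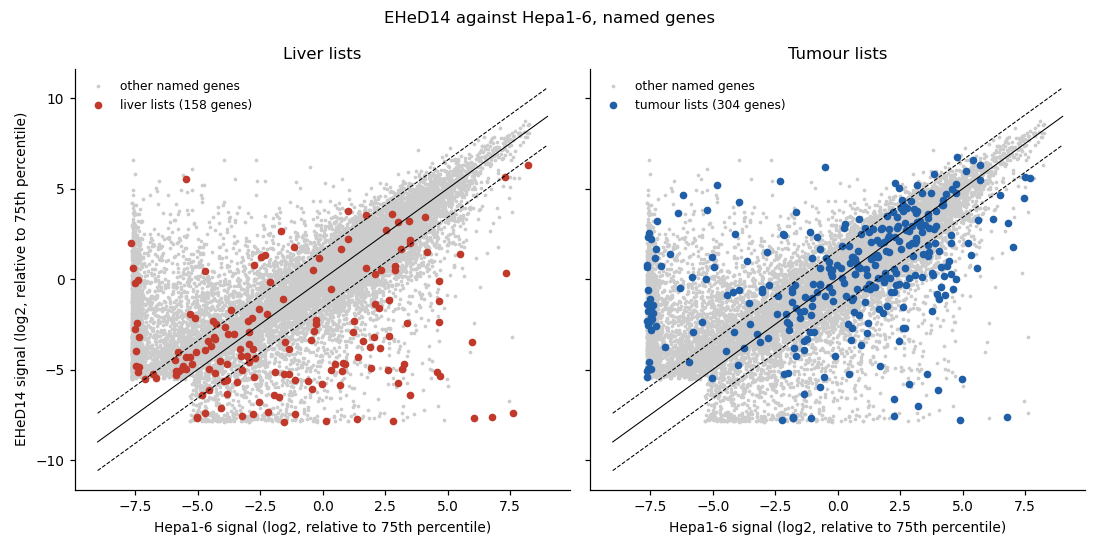
Level of each named gene in Hepa1-6 (x axis) and EHeD14 (y axis), both as log2 signal relative to the array's 75th percentile, 1 point per gene, with the liver lists (158 genes) in red and the tumour lists (304 genes) in blue over all other genes in grey. The solid line is equal level and the dashed lines are 3-fold. Below the lower dashed line lie 80 red points, while blue points lie on both sides.

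**Figure D2:**
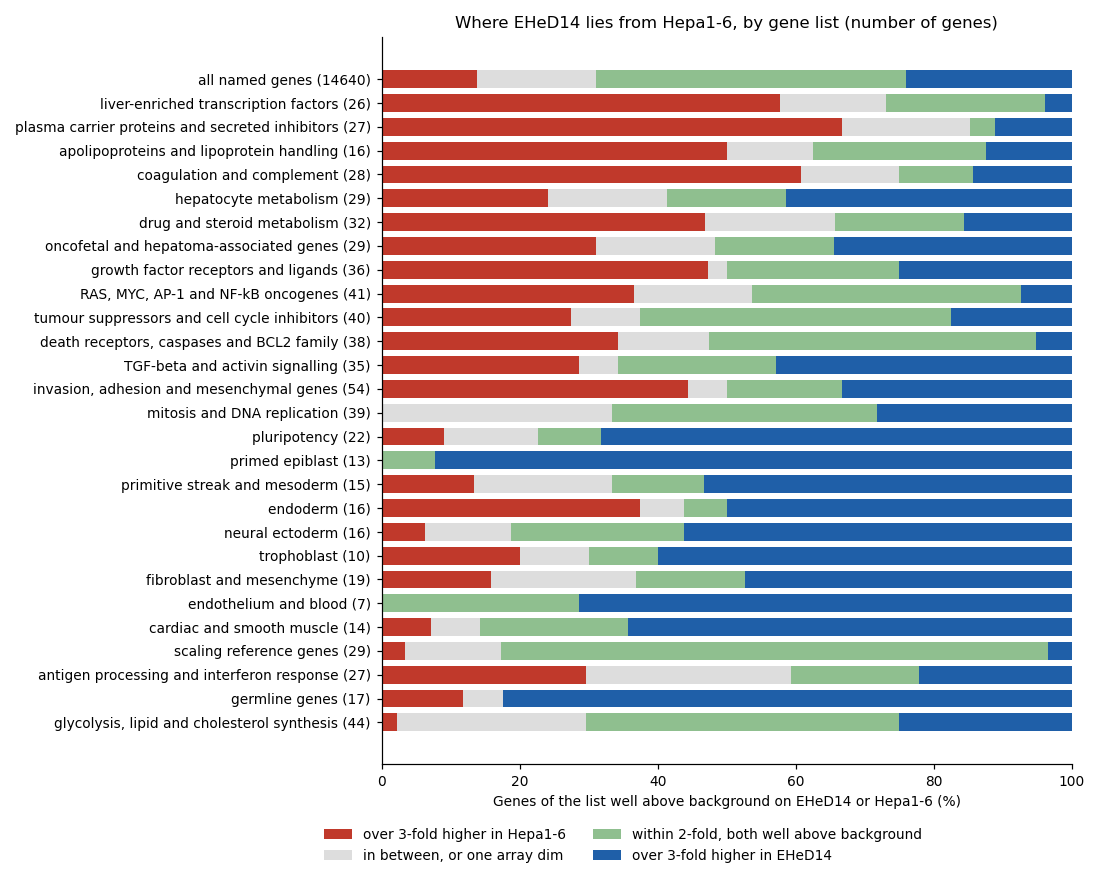
Share of the genes of each list, in percent of those well above background on EHeD14 or Hepa1-6 (number in brackets), that were over 3-fold higher in Hepa1-6 (red), over 3-fold higher in EHeD14 (blue), within 2-fold with both arrays well above background (green), or in neither class (grey). Red fills 66.7% of the bar of plasma proteins against 13.8% for all genes, and blue fills most of the bars of pluripotency, primed epiblast and germline genes.

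Most of the liver-enriched transcription factors were lower in the differentiated hybrid than in the hepatoma. Of 26 factors, 15 were over 3-fold higher in Hepa1-6, 1 was higher in EHeD14 and 6 were near. Onecut2, a relative of the liver factor HNF6, was at -4.54 in ES, -4.13 in EHe, -4.55 on day 7, -4.89 on day 14 and 1.92 in Hepa1-6. All 4 arrays other than Hepa1-6 were low, and the hepatoma was 113-fold above EHeD14. Onecut1, which encodes HNF6 itself, was dim on those 4 arrays and at -1.08 in Hepa1-6, at least 22.2-fold above EHeD14. Foxa2, a pioneer factor of endoderm and liver, was at -2.85 in ES, -6.93 in EHe (dim), -4.57 on day 7, -2.43 on day 14 and 3.38 in Hepa1-6. It was dim in EHe, was well above background in EHeD14, and still lay 56.3-fold under the hepatoma. Foxa3 followed a like course, from dim in EHe to -2.90 in EHeD14 and 1.20 in Hepa1-6.

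Foxa1, the factor on which the study's own knockdown experiments centred, was at -5.27 in ES (dim), -6.69 in EHe (dim), -8.10 on day 7 (dim), -6.41 on day 14 (dim) and -4.82 in Hepa1-6, and its probe was well above background in Hepa1-6 alone. The measured difference of EHeD14 from Hepa1-6 was 3.02-fold, but the bound at the detection limit was 1.67-fold. None of the 3 hybrid arrays had Foxa1 well above background. By quantitative PCR and western blot the study found Foxa1 RNA and protein lowered by knockdown in differentiated hybrids. The dim probe therefore does not show that the gene was off in the hybrids. Hnf4a, the nuclear receptor at the centre of the hepatocyte network, was at -4.37 in EHeD14 and -2.69 in Hepa1-6, a 3.21-fold difference, and another of its 3 probes, dim in EHeD14, was at least 90.1-fold apart. Farnesoid X receptor (Nr1h4), the bile acid sensor, was 36.9-fold, Atf5 17.8-fold, Hhex, needed for the liver bud, 14.0-fold and Cebpb, of the acute phase response, 11-fold higher in Hepa1-6. Smaller differences on the same side were those of the oxysterol receptor Nr1h3 (5.76-fold), Esrra (3.49-fold) and the xenobiotic receptor Nr1i3 (at least 3.02-fold).

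Tbx3 and Nr5a2, both also factors of ES cells, went from above the hepatoma in EHe to below it in EHeD14. Tbx3 was at 4.88 in ES, 3.19 in EHe, -1.55 on day 7, -1.58 on day 14 and 2.27 in Hepa1-6. EHe had it within 2-fold of the hepatoma, and EHeD14 was 14.4-fold lower. Nr5a2 was above Hepa1-6 in ES and EHe, at 1.82 in EHe, and was dim in EHeD14, at least 13.1-fold under the -1.54 of Hepa1-6. The factor over 3-fold higher in EHeD14 was Gata6, a factor of primitive endoderm, heart and gut, at -0.24 in EHeD14 and dim in Hepa1-6, at least 33.6-fold higher in the hybrid. Among those near the hepatoma were Rxra, Prox1, Hnf4g, Creb3l3 and Ppara, although a second probe of Prox1, dim in EHeD14, was at least 2.27-fold higher in Hepa1-6. Of these, Ppara, the fatty acid sensor, was the factor counted as having reached the Hepa1-6 level. Ppara was at -6.32 in ES (dim), -6.46 in EHe (dim), -5.01 on day 7, -5.16 on day 14 and -4.32 in Hepa1-6, and it no longer counted as arrived with normexp, quantile or median scaling, nor with dim arrays set to the limit. In between were Cebpa (2.15-fold) and Gata4 (2.03-fold), both higher in Hepa1-6 (a second probe of Cebpa by 8.93-fold), and Cebpd (2.28-fold) and Nr0b2, both higher in EHeD14. Nr1i2 was dim on both arrays.

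Plasma proteins were the most distant of the liver lists. Of 27 genes, 18 were over 3-fold higher in Hepa1-6, 3 were higher in EHeD14 and none had reached the hepatoma level, and the median difference was -4.47. Albumin (Alb), the main protein of plasma, was at -7.47 in ES (dim), -6.97 in EHe (dim), -8.28 on day 7 (dim), -7.67 on day 14 (dim) and 6.06 in Hepa1-6. It was dim on every array but that of Hepa1-6, which was at least 3135-fold higher than EHeD14. Alpha-fetoprotein (Afp), the albumin of the fetus and a serum marker of hepatoma, was at -4.02 in ES, -6.97 in EHe (dim), -8.31 on day 7 (dim), -7.64 on day 14 (dim) and 6.77 in Hepa1-6. ES cells alone had a measurable level outside Hepa1-6, and the hepatoma was at least 5136-fold above EHeD14. The insulin-like growth factor binding protein Igfbp1 showed the same picture, at -7.38 (dim) in EHeD14 and 7.61 in Hepa1-6, at least 9214-fold apart.

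Carrier proteins with a faint but measured signal in EHeD14 were also far apart. Itih2, a heavy chain that binds hyaluronan, was at -5.15 in ES, -4.93 in EHe (dim), -5.14 on day 7, -5.12 on day 14 and 4.59 in Hepa1-6, with Hepa1-6 838-fold above EHeD14. The haem carrier Hpx differed 243-fold, the vitamin D carrier Gc 200.2-fold, the iron carrier transferrin (Trf) 133-fold and the retinol carrier Rbp4 130.1-fold. Of the 3 genes on the other side, Igfbp2 was at 5.55 in EHeD14 and dim in Hepa1-6, at least 1855-fold apart, and it was at 5.99 in ES. Fetuin-A (Ahsg) was at 1.43 in ES, -2.73 in EHeD14 and dim in Hepa1-6, and Itih4 was 3.47-fold higher in EHeD14.

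On these arrays only a part of the hepatocyte markers had a probe well above background in Hepa1-6 itself. Of the genes set as hepatocyte identity, Alb, Afp, Apob, Fgb, Hnf4a and Cebpa were well above background in Hepa1-6, whereas Ttr, Apoa1 and Fga were dim on all 5 arrays (Ttr at -7.21 in EHeD14 and -7.42 in Hepa1-6). By RT-PCR the study found Ttr abundant in the parental hepatoma, so the dim probe does not show that the gene was off there. In EHeD14 Hnf4a and Cebpa were well above background on the probe used and Alb, Afp, Apob, Fgb, Ttr, Apoa1 and Fga were dim. Both levels were faint and no higher than about those of ES cells, for Hnf4a -4.37 against -3.72 in ES and for Cebpa -3.87 against -3.96. The other probes of Hnf4a were dim in EHeD14.

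Apolipoproteins, which carry lipids in plasma, and clotting and complement factors gave the same direction with more exceptions. Of 16 genes of lipoprotein handling, 8 were higher in Hepa1-6 and 2 were higher in EHeD14. Apob, the core protein of very low density lipoprotein, was at -5.62 (dim) in EHeD14 and -0.57 in Hepa1-6, at least 31.6-fold apart, and Mttp, which loads lipid onto it, differed 7.48-fold. The cholesterol exporter Abca1 was at -1.67 in ES, -0.82 in EHe, -3.43 on day 7, -5.02 on day 14 and 0.34 in Hepa1-6, the lowest level being that of EHeD14, and differed 41.0-fold. Apoe was high on every array, from 5.79 in ES to 8.23 in Hepa1-6, and was 3.77-fold lower in EHeD14 than in Hepa1-6. The phospholipid transfer protein Pltp was dim in Hepa1-6 and at least 38.7-fold higher in EHeD14, and Apoc1, near the hepatoma in EHe, was 3.46-fold higher in EHeD14.

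Of 28 coagulation and complement genes, 17 were higher in Hepa1-6 and 4 in EHeD14. Fibrinogen beta (Fgb), the precursor of the clot, was at -5.83 in ES (dim), -6.20 in EHe (dim), -6.51 on day 7 (dim), -5.34 on day 14 (dim) and 4.70 in Hepa1-6. It was dim on all arrays but Hepa1-6, at least 1054-fold apart. Complement factor I (Cfi) was dim in EHe, at -4.96 in EHeD14 and at 3.19 in Hepa1-6, a 285-fold difference. The central complement protein C3 was at -2.41 in ES, -3.18 in EHe, -1.97 on day 7, -1.24 on day 14 and 4.66 in Hepa1-6. C3 was highest in EHeD14 among the 4 arrays other than Hepa1-6, with 24.8% of the gap closed, and remained 59.4-fold lower than in the hepatoma. The proteases of the first complement component, C1ra (57.9-fold) and C1s1 (55.4-fold), were higher in Hepa1-6 as well. Clotting factor V (F5) went past the hepatoma. It was dim in ES and EHe, at -2.45 in EHeD7, -1.71 in EHeD14 and -3.67 in Hepa1-6. The others higher in EHeD14 were C4b (4.21-fold), C8g (at least 10.2-fold) and F7 (at least 2.43-fold), which ES and EHe also had. Masp2, a protease of the lectin pathway, came down from -0.36 in EHe to -1.64 against -2.53 in Hepa1-6, near on 1 of its 3 probes.

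Genes of hepatocyte metabolism did not share that direction. Of 29, 7 were higher in Hepa1-6 (24.1%, against 13.8% of all named genes) and 12 in EHeD14 (41.4%, against 24.0%). The median difference was 1.05, and another 13 listed genes were dim on both. Fructokinase (Khk) was at 1.01 in ES, 1.07 in EHe, 2.31 on day 7, 2.67 on day 14 and -1.66 in Hepa1-6. The hepatoma was the lowest array, 20.2-fold under EHeD14. Fbp1, of gluconeogenesis, was at -0.72 in EHe, 2.02 in EHeD14 and dim in Hepa1-6, at least 161-fold apart. Also higher in EHeD14 were the fatty acid transporter Slc27a2 (36.0-fold), the folate enzyme Aldh1l1 (12.5-fold), the iron sensor Tfr2 (7.80-fold), the glycine methyltransferase Gnmt (7.46-fold) and the urea cycle enzyme Ass1 (6.73-fold). Higher in Hepa1-6 were Upb1, of pyrimidine breakdown (50.4-fold), pyruvate kinase of the liver (Pklr, 6.22-fold) and the sterol hydroxylase Cyp27a1 (4.54-fold). The vitamin E carrier Ttpa came to the hepatoma level from above and was at -2.42 in ES, -0.17 in EHe, -1.99 on day 7, -2.29 on day 14 and -2.98 in Hepa1-6.

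Of 32 genes of drug and steroid metabolism, 15 were higher in Hepa1-6 and 5 in EHeD14. The retinal dehydrogenase Aldh1a1 was at -3.34 in ES, -2.88 in EHe, -2.81 on day 7, -3.47 on day 14 and 5.98 in Hepa1-6. The hepatoma stood alone, 702-fold above EHeD14. Cyp1a1, the classic target of the dioxin receptor, was dim in ES and EHe, at -3.62 in EHeD7, -4.70 in EHeD14 and 0.89 in Hepa1-6, still 48.1-fold apart. The aldehyde oxidase Aox1 differed 44.5-fold and Cyp2c29 9.55-fold in the same direction. The retinoic acid hydroxylase Cyp26a1 was highest in EHeD14, at 0.62, and dim in Hepa1-6, at least 60.7-fold lower. The glutathione transferase Gsta4 (12.7-fold), the quinone reductase Nqo1 (11.4-fold) and Cyp39a1 (3.83-fold) were also higher in EHeD14. The monooxygenase Fmo5 reached the Hepa1-6 level, at -3.05 against -3.78, from a dim probe in EHe.

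**Figure D3:**
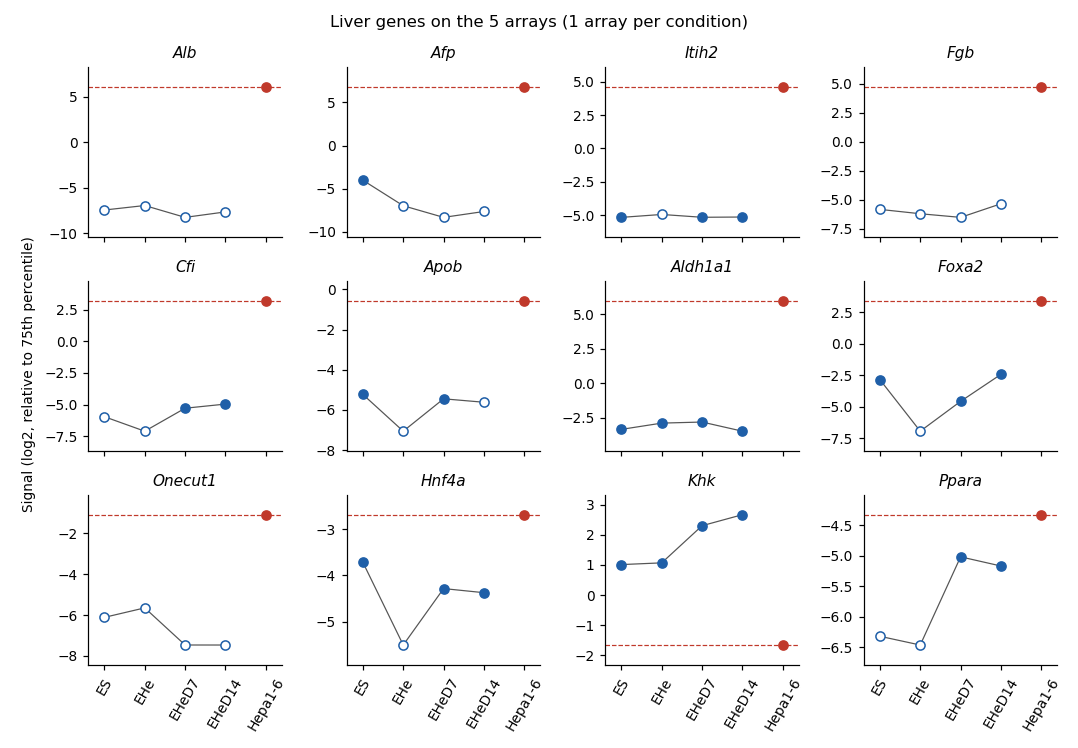
Level (log2 signal relative to the array's 75th percentile) of 12 liver genes on the 5 arrays, 1 point per array, with Hepa1-6 in red and its level carried across as a dashed line. Open points were not well above background. Alb has open points up to EHeD14 (-7.67) while Hepa1-6 is at 6.06, Foxa2 climbs part of the way, Khk lies above the hepatoma, and Ppara comes near its line.

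The distance still open at day 14 can be set against the distance in EHe. EHe lay over 3-fold from Hepa1-6 in 106 liver genes, and 4 of them (Ppara, Fmo5, Masp2 and Ttpa) were near in EHeD14. From below, 2 of 74 had reached the hepatoma, against 12.4% of all named genes that EHe had over 3-fold below, and both had a dim EHe probe. From above it was 2 of 32, against 5.35% of all. The median share of the log2 gap closed was 3.65% for the liver lists and 11% for all named genes, and for the liver lists it became -6.62% once dim arrays were set to the limit. Of the 80 liver genes over 3-fold higher in Hepa1-6, 8 were at the same time over 3-fold higher in EHeD14 than in EHe. Among all named genes it was 179 of 2015, a like share. Of the 27 liver genes that EHe had near Hepa1-6, 6 (Tbx3, Apoc1, Kng1, Gnmt, Gsta3 and Gstp1) were over 3-fold away at day 14, and among all named genes it was 278 of 6004 (4.63%).

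Tumour genes came to the hepatoma level about as often as genes in general. EHe lay over 3-fold from Hepa1-6 in 179 genes of the tumour lists, and 16 (8.94%) were near in EHeD14, against 456 of 5547 named genes (8.22%). From below, 11 of 106 had arrived and from above 5 of 73. Their median closure of the gap was 14.0%. Most of the genes that arrived were within 3-fold at day 7. With EHeD7 in place of EHe as the start, 1 tumour gene, no liver gene and 41 named genes reached the hepatoma level at day 14.

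Among the genes that arrived from below, the cell cycle inhibitor p21 (Cdkn1a) was at 1.33 in ES, 0.66 in EHe, 3.16 on day 7, 2.93 on day 14 and 3.29 in Hepa1-6. The day 7 and day 14 hybrids and the hepatoma lay together above ES and EHe, and EHeD14 was 1.28-fold under Hepa1-6. The AP-1 protein Jun was at -4.30 in ES, -3.55 in EHe, -1.63 on day 7, -1.74 on day 14 and -1.36 in Hepa1-6, a remaining difference of 1.30-fold. Jun no longer counted as arrived with normexp or median scaling. The surface protein Cd24a, used as a marker of liver progenitor and tumour cells, was at -1.31 in ES, 0.32 in EHe, 3.29 on day 7, 3.20 on day 14 and 3.29 in Hepa1-6, and the keratin Krt7, a marker of bile duct epithelium, was at -1.26 in ES, -4.33 in EHe, 1.16 on day 7, 1.53 on day 14 and 2.07 in Hepa1-6. Krt7 thus went from far below to 1.45-fold under the hepatoma, and Cd24a to within 1.07-fold. Gas6, the ligand of the AXL receptor family, was at 0.49 in ES, 0.54 in EHe, 2.80 on day 7, 2.98 on day 14 and 3.48 in Hepa1-6. The small GTPase Rras, at 2.97 in both EHeD14 and Hepa1-6, the basement membrane chain Col4a2 (at 2.04 and 1.34), the G1 kinase Cdk6 (at 0.77 and -0.02), the transcription factor Sox4 (at 0.80 and 1.49) and the receptor Pdgfra (at -3.45 and -3.12) had arrived as well. Both probes named Cdk6 here were near. The study's own table of these arrays, in contrast, lists Cdk6 in EHeD14 over 3-fold under Hepa1-6, and the cause of this conflict was not tested. Pdgfra, like Jun, no longer counted as arrived with normexp or median scaling. Transforming growth factor alpha (Tgfa), a ligand of the EGF receptor, was near on 1 probe (1.88-fold), and its second probe had a difference of -3.19.

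From above came Inhbb, a subunit of activin, the DNA repair gene Brca2, E2f2, the cytokine feedback inhibitor Socs3 and Inhbe. Inhbb was at 4.59 in ES, 3.29 in EHe, -3.31 on day 7, -3.83 on day 14 and -3.74 in Hepa1-6. The fall from EHe to the differentiated hybrids took it to the level of the hepatoma on that probe, while its second probe, dim in Hepa1-6, was at least 3.60-fold higher in EHeD14. Socs3 was at 5.46 in ES, 5.14 in EHe, 2.39 on day 7, 1.97 on day 14 and 2.97 in Hepa1-6, at the edge of 2-fold. Of these 21 genes (the 4 of liver, the 16 of tumour and Camk2d of the study's entries), 4, Cd24a, Cdk6, Col4a2 and Ttpa, counted as arrived in all of the 7 settings of scaling, background, filter and probe choice, and Cdkn1a, Krt7, Gas6, Brca2, E2f2, Socs3, Sox4, Rras and Inhbb in all but 1. The 7 include the main setting, from which the genes were taken, and the filter on both arrays, which arrival already required. Neither of those could fail.

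**Figure D4:**
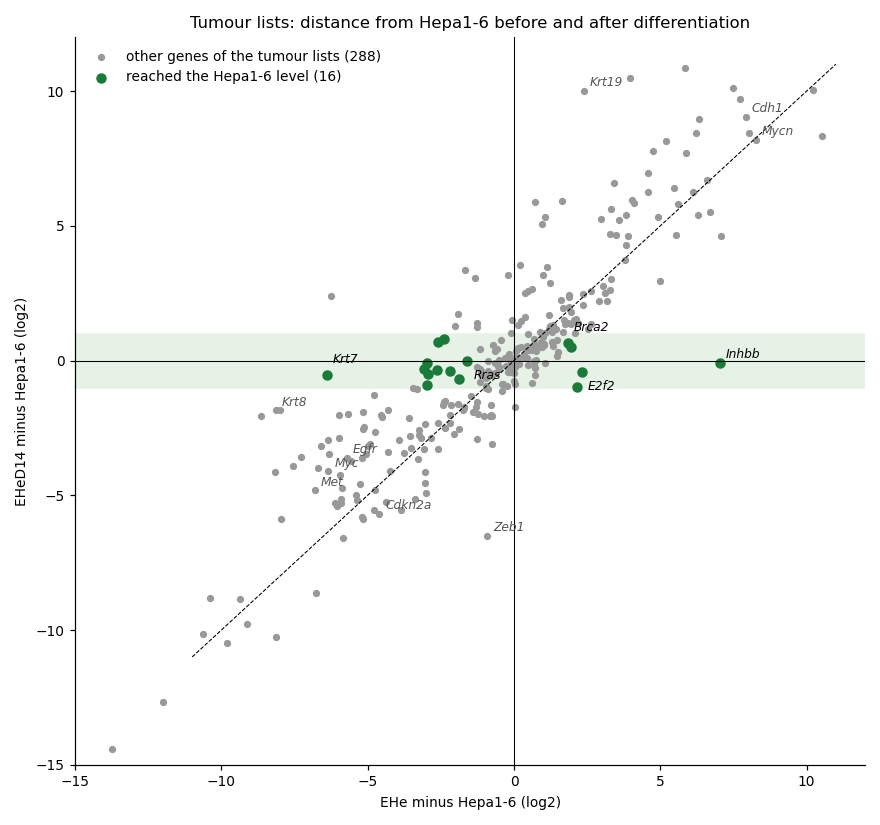
EHe minus Hepa1-6 (x axis) and EHeD14 minus Hepa1-6 (y axis), both as log2 differences, for the 304 genes of the tumour lists, 1 point per gene. The green band is within 2-fold of Hepa1-6 and the dashed line marks no change from EHe. The 16 green points had arrived from over 3-fold away, while many other points lie near the dashed line. Both axes share the Hepa1-6 array.

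**Figure D5:**
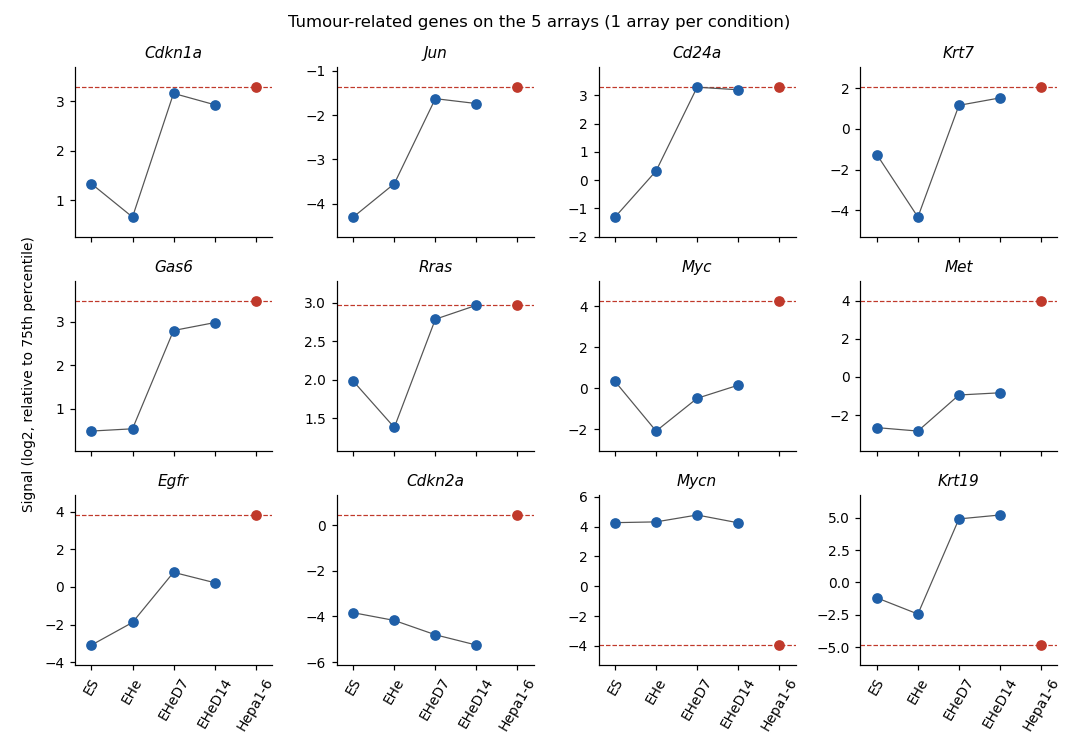
Level (log2 signal relative to the array's 75th percentile) of 12 tumour-related genes on the 5 arrays, 1 point per array, with Hepa1-6 in red and its level carried across as a dashed line. All points were well above background. The first 6 genes come to the line, Myc, Met and Egfr come up to levels of 0.15, -0.83 and 0.22 in EHeD14 and stay below it, Cdkn2a moves away, and Mycn and Krt19 lie above it.

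The study followed a panel of 8 tumour genes by RT-PCR in hybrids differentiated as embryoid bodies. Its pathway entries were chosen on these arrays, so that their directions are no independent evidence. Of the 7 panel genes with a probe (Mgmt had none), Cdkn1a and Jun had reached Hepa1-6, Jun not with normexp or median scaling. Fas, the death receptor, and Bcl2, the survival protein, had come from over 3-fold below to 2.42-fold and 2.07-fold under it, with 73.4% and 68.4% of the gap closed. Fos was dim in EHe, at -2.94 in EHeD14 and at -0.96 in Hepa1-6. Cdkn2a, the locus of p16INK4a and p19ARF, was at -3.83 in ES, -4.17 in EHe, -4.80 on day 7, -5.25 on day 14 and 0.44 in Hepa1-6. It was lowest in EHeD14, 51.5-fold under the hepatoma. The study's RT-PCR, in contrast, found p16INK4a and p19ARF undetectable in Hepa1-6, and the cause of this conflict was not tested. The Polycomb protein Bmi1 was level with Hepa1-6 in EHe and 4.91-fold under it in EHeD14 on 1 of its probes, and its other probe differed by -0.46.

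Of 52 genes among the study's pathway entries, 25 were over 3-fold higher in Hepa1-6, 18 were higher in EHeD14 and 5 were near, and the median closure of the gap was 26.4%. All 11 genes of the cytokine and receptor entries were higher in Hepa1-6: Met, Tgfbr2, Egfr, Ifngr1, Il10rb, Pdgfc, Flt3l, Tgfb1, Pdgfb, Il17rc and Ccl7, the last with a dim probe in EHeD14. The 10 measured on both arrays ran from 3.27-fold to 28.0-fold, and the bound for Ccl7 was 3.25-fold. Of the apoptosis entries, the adaptor Tifa (29.2-fold), Nfkb2 (11-fold), Il13ra1 (3.95-fold) and Capn2 (3.41-fold) were higher in Hepa1-6, while Bik (at least 9.32-fold), Ngfr (at least 10.8-fold) and Tnik (at least 3.18-fold) were higher in EHeD14. Pakap, in between, differed 2.12-fold, and Nfkb1 was dim on both arrays.

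Of the transforming growth factor beta entries, the receptor Bmpr2 (39.1-fold), the matrix protein Thbs1 (17.8-fold) and Myc were higher in Hepa1-6, Amhr2 was 25.4-fold higher in EHeD14 and Smad3 was 2.93-fold apart. Thbs1 was dim in ES and EHe and at -2.99 in EHeD14. Of the entries that the study headed Esrb, Nrg1 was 6.33-fold higher in Hepa1-6, Megf6 at least 3.15-fold higher in EHeD14, and Camk2d, Tgfa and Stat5b were near on the probe used, with other probes of each at -1.68 or lower. Of the MAP kinase entries, the kinase Rps6ka4 (4.65-fold), the phosphatase Dusp6 (4.51-fold) and Junb (4.99-fold) were higher in Hepa1-6. Tmeff1 (at least 135-fold), Plaat3 (at least 58.0-fold) and Fgf3, with a bound of 1.94-fold, were higher in EHeD14, and Rac1 and Nfatc2 were in between on the probe used. A second probe of Rac1 was 3.71-fold higher in Hepa1-6. Other probes of Nfatc2, dim in Hepa1-6, were at least 1.90-fold and at least 3.96-fold higher in EHeD14. Of the p53 entries, Thbs1 was on the Hepa1-6 side, and Adgrb1 (5.28-fold), Chek2 (5.40-fold), Rprm (at least 10.9-fold), Trp53i11 (at least 15.2-fold) and Rbak (at least 25.6-fold) were higher in EHeD14. Of the cell cycle entries, Plk2 was 3.95-fold higher in Hepa1-6, Anapc10 was near on the probe used, and Atmin (4.01-fold), Espl1 (5.94-fold), Bub1b (6.74-fold) and the cohesin Stag3 (at least 23.3-fold) were higher in EHeD14. A second probe of Anapc10, dim in Hepa1-6, was measured 4.74-fold higher in EHeD14, with a bound of 1.03-fold.

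Among growth factor receptors and ligands the larger count was on the hepatoma side. Of 36 receptors and ligands, 17 were higher in Hepa1-6 (47.2%, against 13.8% of all named genes) and 9 in EHeD14 (25%, against 24.0%). Met, the receptor of hepatocyte growth factor, was at -2.65 in ES, -2.83 in EHe, -0.94 on day 7, -0.83 on day 14 and 3.98 in Hepa1-6. EHeD7 and EHeD14 lay above ES and EHe and 28.0-fold under the hepatoma. The EGF receptor (Egfr) was at -3.09 in ES, -1.89 in EHe, 0.77 on day 7, 0.22 on day 14 and 3.82 in Hepa1-6, a remaining 12.1-fold. Its ligand Hbegf was higher by 46.5-fold in Hepa1-6, and the receptor Axl, dim in ES and EHe, by 12.1-fold. On the other side were the decoy-like receptor Igf2r, which clears IGF2 (13.4-fold), the VEGF receptor Flt1 (10.2-fold), Fgfr1 (4.77-fold) and Tyro3 (4.68-fold).

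Of 41 genes of the RAS, MYC, AP-1 and NF-kB list, 15 were higher in Hepa1-6 (36.6%, against 13.8% of all named genes). Another 3 were higher in EHeD14 (7.32%, against 24.0%) and 16 were near (39.0%, against 44.9%). The MYC family split by member. Myc was at 0.33 in ES, -2.09 in EHe, -0.49 on day 7, 0.15 on day 14 and 4.26 in Hepa1-6. Mycn, its relative of embryonic tissue, was at 4.26 in ES, 4.32 in EHe, 4.78 on day 7, 4.25 on day 14 and -3.94 in Hepa1-6. The 4 other arrays lay above Hepa1-6 for Mycn and below it for Myc, with Myc 17.2-fold under and Mycn 293-fold over the hepatoma in EHeD14. The AP-1 proteins split too, as Jun had arrived while Fosl1 (58.7-fold), Fos (3.94-fold) and the stress factor Atf3 (12.2-fold) were higher in Hepa1-6. Myb (at least 18.3-fold) and the kinase Pim1 (5.07-fold) were higher in EHeD14.

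Of 40 tumour suppressors and cell cycle inhibitors, 11 were higher in Hepa1-6 (27.5%, against 13.8% of all named genes). Another 7 were higher in EHeD14 (17.5%, against 24.0%) and 18 were near (45%, against 44.9%). Of the INK4 inhibitors Cdkn2d was near and 3 were higher in the hepatoma, Cdkn2a, Cdkn2b (36.2-fold) and Cdkn2c (23.3-fold), as was the stress gene Gadd45g (35-fold). Cdkn1c, the p57 inhibitor of the embryo, was 49.2-fold higher in EHeD14. Rb1 and Socs1 were near Hepa1-6 in EHe and 3.03-fold and 8.98-fold higher in EHeD14.

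Of 38 genes of cell death, 18 were near (47.4%, against 44.9% of all named genes) and 13 were higher in Hepa1-6 (34.2%, against 13.8%). The latter were led by the TWEAK receptor Tnfrsf12a (13.2-fold), Ripk1 (12.7-fold), the caspase inhibitor Cflar (10.6-fold) and the TNF receptor Tnfrsf1a (9.61-fold). Ripk3, the kinase of necroptosis, was at 2.54 in EHeD14 and dim in Hepa1-6, at least 229-fold apart. In the transforming growth factor beta and activin list, 15 of 35 were higher in EHeD14 (42.9%, against 24.0%). Another 10 were higher in Hepa1-6 (28.6%, against 13.8%). The embryonic ligand Nodal was at 3.84 in ES, 3.59 in EHe, 5.42 on day 7, 5.41 on day 14 and -2.29 in Hepa1-6, 209-fold above the hepatoma, Tgfb3 was 96.8-fold and the activin receptor Acvr2b 19.7-fold higher in EHeD14, and the activin antagonist Fst, dim in EHe, had gone 5.27-fold past Hepa1-6. On the other side were Tgfb1 itself (4.03-fold), its receptor Tgfbr2 (17.3-fold) and the latent binding protein Ltbp3 (19.2-fold).

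Of 54 genes of invasion, adhesion and mesenchyme, 24 were higher in Hepa1-6 (44.4%, against 13.8% of all named genes). Another 18 were higher in EHeD14 (33.3%, against 24.0%). E-cadherin (Cdh1), the junction protein of epithelia, was at 2.17 in ES, 2.67 in EHe, 4.07 on day 7, 3.81 on day 14 and -5.24 in Hepa1-6 (dim). The hepatoma alone was dim, at least 533-fold under EHeD14. The tight junction proteins Cldn6 (at least 371-fold) and Cldn7 (at least 1012-fold) and the collagen cross-linker Loxl2 (76.4-fold) were higher in EHeD14 as well, as were the collagens Col1a2 (11-fold) and Col4a1 (3.28-fold). Zeb1, a repressor of E-cadherin, was at 0.78 in ES, 0.78 in EHe, -5.14 on day 7, -4.81 on day 14 and 1.70 in Hepa1-6. EHe had it near the hepatoma, and EHeD14 lay 90.8-fold under it. Fibronectin (Fn1, 35.1-fold), the urokinase receptor Plaur (26.5-fold), Timp2 (24.1-fold) and Twist2 (15.0-fold) were higher in Hepa1-6.

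Keratins of simple epithelia, which hepatocytes also make, covered most of the distance without arriving. Krt8 was at 1.65 in ES, -0.65 in EHe, 5.02 on day 7, 5.64 on day 14 and 7.49 in Hepa1-6 and Krt18 was at 1.37 in ES, -0.96 in EHe, 5.17 on day 7, 5.61 on day 14 and 7.67 in Hepa1-6. EHeD14 had closed 77.2% and 76.1% of the log2 gaps and stood 3.61-fold and 4.18-fold under Hepa1-6. Krt19, of bile duct and progenitor epithelium, was at -1.18 in ES, -2.43 in EHe, 4.90 on day 7, 5.20 on day 14 and -4.82 in Hepa1-6, so that the differentiated hybrids lay 1038-fold above a faint level in the hepatoma. Of 29 oncofetal and hepatoma-associated genes, 10 were higher in EHeD14 (34.5%, against 24.0% of all named genes) and 9 in Hepa1-6 (31.0%, against 13.8%). Beside Krt19 these were the growth factor Mdk (104-fold), Epcam (42.5-fold), the chromatin protein Hmga2 (25.6-fold) and the glypican Gpc3 (24.3-fold) on the hybrid side. On the hepatoma side were, beside Afp, the trefoil peptide Tff3 (448-fold), galectin-3 (Lgals3, 38.0-fold), the aldose reductase relative Akr1b8 (30.4-fold) and annexin A2 (Anxa2, 9.10-fold).

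No gene of the mitosis and DNA replication list was over 3-fold higher in Hepa1-6. Of 39 genes, 11 were higher in EHeD14 (28.2%, against 24.0% of all named genes) and 15 near (38.5%, against 44.9%). The median difference was 1.35 against 0.28 for all genes. The replication helicase subunit Mcm5 was at 5.73 in ES, 5.59 in EHe, 5.37 on day 7, 5.32 on day 14 and 2.29 in Hepa1-6, 8.17-fold above the hepatoma, and cyclin E (Ccne1) was 6.14-fold higher. Both were within 2-fold of ES and EHe in EHeD14.

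Markers of other cell types differed between the arrays in both directions, by list and by measure. Their part in the liver and tumour differences was not tested, and on an array of mixed cells fewer cells of a type and less RNA per cell cannot be told apart. Of 22 pluripotency genes, 15 were over 3-fold higher in EHeD14. Oct4 (Pou5f1) was at 3.75 in ES, 4.04 in EHe, 4.41 on day 7, 4.18 on day 14 and -6.59 in Hepa1-6 (dim), at least 714-fold above the hepatoma and within 2-fold of ES. Dppa5a was 614-fold, the threonine dehydrogenase Tdh 981-fold, Klf5 141-fold and Gdf3 63.6-fold higher, and Sox2 at least 97.7-fold. Klf2 and Dppa2 had come down to the hepatoma level, and Klf4 went below it, at 5.64 in EHe, 0.25 in EHeD14 and 4.54 in Hepa1-6. The summed signal of the 22 pluripotency genes, in units of the 75th percentile, was 746 in ES and 681 in EHe, 392.5 on day 7 and 263 on day 14, against 54.5 in Hepa1-6.

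Markers of the primed epiblast, the pluripotent tissue that forms the germ layers, had gone the other way. Of 13 genes, 12 were higher in EHeD14, and their summed signal was 29.1 in EHe, 102 on day 7 and 108 on day 14, against 4.50 in Hepa1-6. Fgf5 was at -4.57 in ES, -6.86 in EHe (dim), 2.34 on day 7, 2.98 on day 14 and -7.52 in Hepa1-6 (dim), and Otx2 was at 2.31 in ES, -0.55 in EHe, 3.48 on day 7, 3.59 on day 14 and -7.43 in Hepa1-6 (dim). Both were dim in Hepa1-6, at least 313-fold and 477-fold lower, as the methyltransferase Dnmt3b (159-fold) and Sall2 (14.0-fold) were lower though measured. Of 15 genes of primitive streak and mesoderm, 8 were higher in EHeD14. Brachyury (T) was at -4.42 in ES, -6.18 in EHe (dim), 1.62 on day 7, 1.71 on day 14 and -7.50 in Hepa1-6 (dim), Wnt3 was at least 118-fold, Hand1 at least 48.7-fold, Eomes at least 59.7-fold and Mesp2 5.17-fold higher, whereas Bmp4 was 4.73-fold higher in Hepa1-6 and Meox1, dim in EHeD14, had a bound of 1.95-fold.

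The endoderm list, from which liver arises, was split. Of 16 genes, 8 were higher in EHeD14 (50%, against 24.0% of all named genes) and 6 in Hepa1-6 (37.5%, against 13.8%). The hybrid side held Gata6, Lama1 (at least 37.7-fold) and Dab2 (48.4-fold), genes of primitive and parietal endoderm, and the hepatoma side Afp, Foxa2, Hhex, Hnf4a and Foxa1. Its summed signal was 12 in EHeD14 and 133 in Hepa1-6, the latter mostly from Afp. In the neural list 9 of 16 were higher in EHeD14, among them Nes (100.3-fold) and Hes5 (at least 173-fold), with Tubb3 down to the hepatoma level. Of 10 trophoblast genes 6 were higher in EHeD14 (60%, against 24.0% of all named genes), among them Gata3 (at least 28.4-fold) and Tfap2c (at least 11.1-fold). On the other side, Krt8 (3.61-fold) and Krt18 (4.18-fold) were higher in Hepa1-6 (20%, against 13.8%). The summed signal of the trophoblast list was 106 in EHeD14 and 388 in Hepa1-6, on both arrays mostly from Krt8 and Krt18. Muscle and mesenchyme genes stood on the hybrid side in 9 of 14 and 9 of 19 cases, with Cnn1 (at least 157-fold), Myl7 (at least 147-fold), Des (at least 31.4-fold), Tagln (18.3-fold), Thy1 (at least 133-fold) and Col5a1 (at least 81.5-fold). A second probe of Col5a1 differed by 0.65. The summed signal of the mesenchyme list was 84.9 in EHeD14 and 235 in Hepa1-6, the latter mostly from decorin, and that of the muscle list 33.3 and 25.1. On the hepatoma side, the matrix proteoglycan decorin (Dcn) was dim up to EHeD14 and at 7.46 in Hepa1-6, at least 8264-fold apart, cardiac troponin Tnnt2 was 316-fold and S100a4 38.4-fold higher in the hepatoma. Of 7 blood and endothelial genes 5 were higher in EHeD14, including haemoglobin alpha (Hba-a1, 10.6-fold), Cd34 (at least 15.2-fold), Gata1 (at least 3.65-fold) and Gata2 (at least 2.43-fold).

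Across all named genes measured well on both arrays, the 10 with the largest difference towards EHeD14 were Slc16a3, Tmsb4x, Krt19, Tdh, Syce2, Fxyd6, Dppa5a, Epop, Cited1 and Mapk13, from 305-fold to 1476-fold. The lactate exporter Slc16a3 was at 3.21 in ES, 3.06 in EHe, 6.59 on day 7, 6.58 on day 14 and -3.95 in Hepa1-6. Towards Hepa1-6 the 10 were Sprr1a, Ankrd1, Itih2, Aldh1a1, Akr1c12, Akr1c19, Tmem171, Tff3, Ly6a and Gpnmb, from 397-fold to 1774-fold. Sprr1a, a protein of the cornified envelope of squamous epithelium, was at -3.02 in ES, -3.50 in EHe, -3.07 on day 7, -3.20 on day 14 and 7.59 in Hepa1-6, and Ankrd1, a muscle stress protein and YAP target, was at -0.93 in ES, -6.84 in EHe (dim), -4.86 on day 7, -4.02 on day 14 and 5.88 in Hepa1-6. Beside Inhbb and Krt7, the widest gaps that had closed by day 14 were those of Arl4c, Nrcam and Irgm1 from below and of Ceacam1, Mylpf, Aurkc, Itpka and AI467606 from above, each on the probe used. A second probe of Arl4c was 3.81-fold higher in Hepa1-6, one of Nrcam 3.12-fold higher in EHeD14, and one of Ceacam1, dim in Hepa1-6, at least 1.77-fold higher in EHeD14. The GTPase Arl4c was at -0.25 in ES, -1.35 in EHe, 4.60 on day 7, 4.63 on day 14 and 5.02 in Hepa1-6, and the adhesion molecule Nrcam was at -4.19 in ES, -3.26 in EHe, 2.44 on day 7, 2.54 on day 14 and 2.90 in Hepa1-6. Apoa1, Apob, Ass1, Cdh1, Cdkn2d, Cldn6, Cldn7, Fbp1, Fga, Fgb, Fgf5, Gnmt, Gpc3, Gsta3, Gstp1, Igfbp1, Kng1, Pou5f1 and Rbp4 were named after their values had been seen.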

How the data were processed

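Agilent whole mouse genome arrays were hybridized once each with RNA of ES, EHe, EHeD7, EHeD14 and Hepa1-6 cells, which the labels describe as single-colour. The authors deposited the scanner intensity of every spot as written by Agilent Feature Extraction (10.7.3.1), background-subtracted and without normalization between arrays, and a value table whose intensity values were identical. The dye is given as Cy3 in the labels and as Cy5 in the study's methods. From the processed intensity, log2 values were taken for non-control spots, outlier spots were dropped, each array's 75th percentile was subtracted and spots of a probe were averaged. Of 41174 probes, 27639 were well above background on EHeD14 or Hepa1-6 and were kept. RefSeq tables named 26888 probes and the study's supplement 144, and 14142 had no name and were left out of gene counts. Each gene was represented by 1 probe, that well above background on the most arrays and then the brightest on average. In 5272 genes with 2 or more kept probes, 3443 had all probes in one class and 37 had opposite calls. Python (3.11.15), numpy (2.4.6), pandas (2.3.3), matplotlib (3.10.9), R (4.3.3) and limma (3.58.1) were used.

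With 1 array per condition no test was possible. Genes over 3-fold apart, within 2-fold, or in between were counted. A gene reached Hepa1-6 when EHe was over 3-fold away and EHeD14 within 2-fold with both arrays well above background. The counting was tested on simulated data. Named were the 10 largest differences each way, up to 4 genes per list and direction past 3-fold, all list members that reached Hepa1-6, all liver-enriched transcription factors, the study's panel and entries, the genes Foxa1, Egfr, Tgfa, Junb, Alb and Ttr, and the 10 widest gaps closed. Members and lists were chosen with earlier results of these data known. The alternatives tried were a normexp correction of background (offset 50, on the median spot signal, the column used here in place of the mean), quantile normalization, median centring, thresholds of 2-fold and 10-fold, other filters on dim probes, dim values at the detection limit, the mean of a gene's probes, the deposited value table and EHeD7 as the start. The number of arrays limits the precision. Columns of samples left unused numbered 0. Some genes that the naming rule covers, and 1 result that needs them, are not reported here.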

Additional observations from a re-analysis of the deposited data

How the results depend on the processing

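Of 132 values recomputed under the alternatives, 105 stayed within the tolerance, 25 moved and 2 reversed, and the causes were not tested. The tolerance was 1.5 times for counts and for median shares of the gap closed, and the spot SD for median differences. Some of the 105 could not move. The deposited value table held identical intensities, and filters on dim probes left the counts of near and arrived genes unchanged by definition. No paired analysis was possible because a single array stood for EHeD14 and for Hepa1-6, without replicate numbers to pair. Probes higher in Hepa1-6 (3782) numbered 5750 at 2-fold, 1206 at 10-fold, 2374 with normexp and 6877 with median centring. Probes higher in EHeD14 (6229) numbered 2676 at 10-fold, 2880 with normexp, 4070 with median centring and 2115 with both arrays well above background, and EHeD14 was the higher side in 62.2% of calls, 54.8% with normexp, 52.6% with quantile normalization, 37.2% with median centring and 45.1% with the filter on both arrays. The median difference of all probes (0.27) was 0.14 with normexp, 0.030 with quantile normalization and -0.56, a reversal, with median centring. Liver genes higher in EHeD14 (27) numbered 15 with normexp and 13 with the filter on both arrays, which left 47 of the 80 higher in Hepa1-6 and 35 of the 73 tumour genes higher in EHeD14. From EHeD7 as the start, 0 liver genes (of 4 from EHe), 1 tumour gene (of 16) and 41 named genes (of 456) reached Hepa1-6. Dim values at the detection limit left 2 liver genes, and within 3-fold as the limit gave 33 tumour and 1079 named genes. The median share of the gap closed in liver genes (3.65%) was 1.52% with quantile normalization, 7.26% without a filter, 19.4% with the filter on both arrays and -6.62%, a reversal, with dim values at the limit. With the filter on both arrays it was 23.1% for tumour genes (14.0%) and 21.4% for named genes (11%). Of 1075 values of 215 genes under the naming rule past 3-fold, 1013 stayed past it in the same direction, 62 did not and 0 reversed.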

Other observations

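Germline genes, many of them switched on in ES cells and off in most somatic lines, were on the hybrid side in 14 of 17 cases, with a median difference of 4.06. The chromatin protein Mael was at 3.53 in ES, 1.80 in EHe, 2.03 on day 7, 1.43 on day 14 and -7.04 in Hepa1-6 (dim), at least 106.7-fold above the hepatoma. Tex19.1 (at least 90.9-fold), the meiotic cohesin Rec8 (40.3-fold) and the helicase Ddx4 (at least 37.3-fold) were higher in EHeD14 too. Rec114 and Spo11, both of meiotic recombination, were the exceptions. Rec114 was at 2.08 in ES, 2.03 in EHe, -4.82 on day 7, -4.60 on day 14 and 1.27 in Hepa1-6, near the hepatoma in EHe and 58.6-fold below it in EHeD14, and Spo11 was 3.19-fold lower in EHeD14.

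Genes of antigen processing and the interferon response were divided. Of 27, 8 were higher in Hepa1-6 (29.6%, against 13.8% of all named genes) and 6 in EHeD14 (22.2%, against 24.0%). The class I light chain B2m was at 0.23 in ES, 0.16 in EHe, 1.39 on day 7, 1.94 on day 14 and 5.46 in Hepa1-6, 11.5-fold under the hepatoma in EHeD14. The sensor Ifih1 (9.10-fold) and Oas1a (9.53-fold) were higher in Hepa1-6 as well. The peptide transporter Tap1 and the ubiquitin-like Isg15 reached the hepatoma level, and Isg15 was at -4.58 in ES, -6.02 in EHe (dim), -4.02 on day 7, -1.95 on day 14 and -1.75 in Hepa1-6. Oasl2 (10.4-fold) and the proteasome genes Psmb9 (3.52-fold) and Psme1 (3.41-fold) were higher in EHeD14. The class I heavy chain H2-K1 had 1 probe 10.4-fold higher in EHeD14, another probe 26.7-fold higher there, and 1 probe 4.86-fold higher in Hepa1-6.

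Of 44 genes of glycolysis, lipid and cholesterol synthesis, 20 were near (45.5%, against 44.9% of all named genes), 11 were higher in EHeD14 (25%, against 24.0%) and Hk1 (3.83-fold) was the one higher in Hepa1-6. The cholesterol enzymes Mvd (9.40-fold), Fdft1 (4.95-fold) and Idi1 (4.73-fold) were higher in EHeD14, Lss and Pfkp had come down and Tpi1 up to the hepatoma level, and the 2 exceptions among the evenly expressed genes were B2m and the transferrin receptor Tfrc (4.11-fold higher in EHeD14).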
